A study of Mus musculus with 4 samples.

Results

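The genes described here encode integrins, laminins and their basement membrane partners. They were taken from the deposited count table by symbol: integrin alpha subunits (Itga followed by a number or letter), integrin beta subunits (Itgb with 1 digit), laminin chains (Lama, Lamb or Lamc with 1 digit), and Nid1, Nid2, Hspg2 and Agrn. This rule found 41 of the 54152 genes in the table. The 40 described here, called members below, are 26 integrin genes (18 alpha and 8 beta subunits), 10 laminin chain genes, 2 nidogen genes, the perlecan gene Hspg2 and the agrin gene Agrn. The samples are whole uteri of C57 mice collected on pregnancy day 4, with 2 RNA libraries under the p38α genotype label ff and 2 under dd. Wild-type and p38α knockout uteri are named in the series title, and the comparison asks which transcripts differ between them. The labels give neither the promoter driving a recombinase, nor the deleted exons, nor whether replicates came from separate or pooled animals, so p-values measure the spread between these samples only.

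Integrins are cell surface receptors made of an alpha and a beta subunit, and the pair decides which matrix protein or partner cell is bound. Laminins are cross-shaped trimers of an alpha, a beta and a gamma chain that assemble into the sheet of a basement membrane. Nidogens and perlecan join that sheet to the collagen IV network. In the uterus such membranes lie under the luminal and glandular epithelium and around vessels and smooth muscle cells, and the embryo meets the first of these when it implants.

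Mapk14, the targeted gene, had 3074 and 2710 counts under the label ff and 2481 and 3429 under dd. In CPM (counts scaled to the library total) it had 92.3 and 87.0 in ff against 105.0 and 113.2 in dd. Each dd library was thus above each ff library, and no lower level under dd was seen. Mapk14 was not called (log2 change 0.28, edgeR unadjusted p = 0.026, adjusted p = 0.12). A count over the whole gene does not show whether some exons are missing, so every direction given here rests on the labels. Total counts per library ranged from 24619850 to 32451670, and all 40 members passed the filter on low counts. Marker lists differed between the groups as well. The 12 epithelial markers (keratins, Cdh1 and others) summed to 1226 and 1486 CPM in ff and to 2881 and 3380 in dd. The 12 endothelial markers summed to 2004 and 1792 CPM in ff and 1178 and 1215 in dd. The sums of the 10 stromal markers were 14464 and 12675 against 10076 and 6889 CPM, and those of the 5 pericyte markers 691 and 910 against 444 and 376. Of the 10 stromal markers, 9 had changes below 0 and 1 above, and only 3 were called lower. The 4 oviduct markers summed to 107 and 79.4 CPM in ff and 196 and 218 in dd, and the 5 red cell markers to 69.1 and 68.0 against 238 and 305. Mesothelial and nerve sheath sums overlapped between the groups. In these bulk samples, fewer cells of a type and less RNA per cell cannot be told apart.

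Of the 40 members, 4 rose and 4 fell in the libraries labelled dd by edgeR's quasi-likelihood test at an adjusted p under 0.05. Over all 18530 genes tested, 4.52% were called higher and 3.86% lower, 8.39% in all. At an unadjusted p under 0.05 there were 8 members higher and 17 lower, against 14.9% and 14.4% of all genes. The increases were Lama3, Lamb3, Itgb5 and Itgae, and the decreases Lama2, Lamb1, Nid1 and Itgax. The median log2 change was −0.32 over the members and 0.0022 over all genes tested. Over all genes tested 50.3% were above 0, and of the members 12 were above 0 and 28 below. With upper quartile factors, or with library size as the only scaling, the split was 11 and 29, since Itgb4 changed sign. With library size alone the calls were 3 higher and 7 lower, and with upper quartile factors 4 and 5. Over all genes, 53.9% of calls were higher with TMM factors, 47.4% with upper quartile factors and 42.4% with library size alone.

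**Figure D1:**
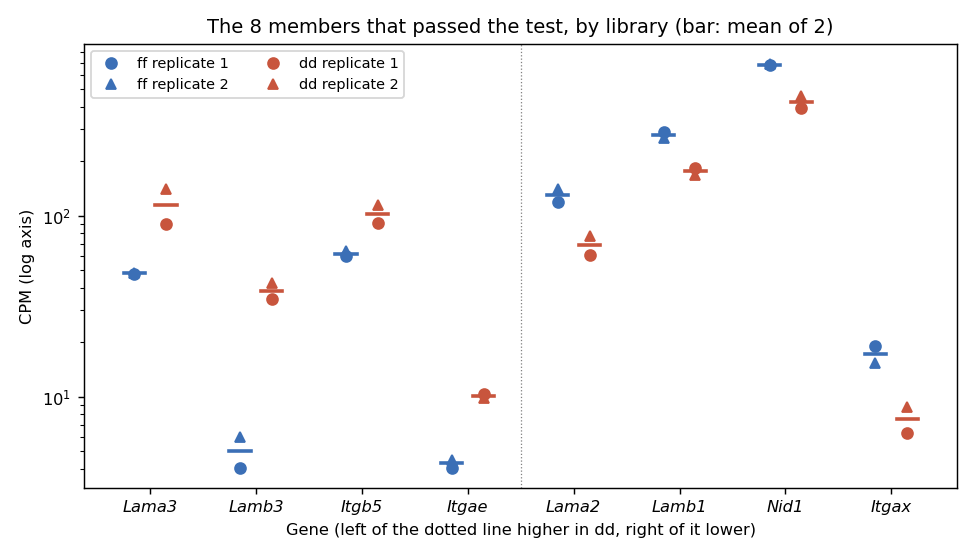
CPM on a log axis for the 8 members that passed the test, with 1 point per library and a bar at the mean of 2 (blue ff, red dd). The widest gap is in Lamb3, at 4.06 and 6.004 CPM in ff against 34.7 and 42.3 in dd.

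Lama3 and Lamb3, for the alpha3 and beta3 chains of a laminin that anchors epithelial cells to the basement membrane, rose in the libraries labelled dd. This laminin is the main ligand of the hemidesmosome integrin alpha6 beta4. Lamb3 (chromosome 1, 193207699 to 193343878, mm10), the gene of the beta3 chain, had 135 and 187 counts under the label ff against 821 and 1280 under dd. Both dd libraries lay several-fold above both ff libraries. The means were 5.03 ± 1.38 and 38.5 ± 5.31 CPM (SD, n = 2 each), a 7.66-fold increase (log2 2.94, SE 0.24, 95% interval 2.32 to 3.55, edgeR adjusted p = 0.0165). Of the 8 called members, Lamb3 was the only one whose call held whichever library was left out, with log2 changes from 2.68 to 3.24. Its annotated span holds 4 genes of the opposite strand, among them Hsd11b1 and G0s2, none of which shares an exon base with it.

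Lama3, for the alpha3 chain, had 47.8 and 48.2 CPM in ff and 89.7 and 140.7 in dd. The ff libraries were nearly equal, while dd replicate 2 was well above dd replicate 1. The log2 change was 1.26 (SE 0.22, edgeR adjusted p = 0.0404). Without dd replicate 2 the log2 change was 0.90, against 1.56 without dd replicate 1. The call held in both of these fits and was lost without ff replicate 1 (edgeR adjusted p = 0.142) and without ff replicate 2 (adjusted p = 0.0925). Limma-trend on FPKM also did not call Lama3 (adjusted p = 0.0652). Epithelial markers had higher levels in the same libraries, with all 12 above 0 and a median log2 change of 0.99. None of them was at 0 counts in every library, and oviduct markers were higher as given above. The part of epithelial or oviduct RNA in these increases was not tested.

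To show the start of the chain gene that rose most beside that of its sister chain that fell, the bases before the transcription start of Lamb3 and Lamb1 follow, from RefSeq on build GRCm38.p6, plus strand, 5′ to 3′, ending before the next annotated exon base. Capitals mark GC boxes (GGGCGG on either strand), a motif bound by SP family factors. The Lamb3 stretch is chr1:193301744-193301992 and the Lamb1 stretch is chr12:31265043-31265233. The Lamb3 span given above, from GENCODE M21, begins further upstream with other transcripts, so the Lamb3 stretch lies inside that span, outside the annotated Lamb3 exons.
Lamb3: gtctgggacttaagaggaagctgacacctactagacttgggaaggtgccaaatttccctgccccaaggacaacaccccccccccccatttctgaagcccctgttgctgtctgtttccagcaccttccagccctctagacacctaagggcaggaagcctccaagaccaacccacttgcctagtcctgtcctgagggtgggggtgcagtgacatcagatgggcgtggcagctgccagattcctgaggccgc
Lamb1: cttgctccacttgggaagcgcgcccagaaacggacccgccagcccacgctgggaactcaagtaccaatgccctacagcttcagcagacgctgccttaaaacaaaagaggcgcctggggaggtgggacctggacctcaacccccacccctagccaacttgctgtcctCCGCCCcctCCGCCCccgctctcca
The Lamb1 stretch holds 2 GC boxes on the minus strand and the Lamb3 stretch holds none, with GC contents of 63.9% and 58.6%. A GC box lies in the 250 bases before the start of 11 of the 26 members that have an entry, and of 35.4% of all 27025 genes with an entry. The AP-1 motif TGANTCA (either strand) was found there in Itgax alone among those 26, against 7.82% of all genes, and TATAAA (either strand) in none, against 14.3%. A match describes these letters only.

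The laminin chain genes Lama2 and Lamb1 and the nidogen gene Nid1 fell. Lamb1 (chromosome 12, 31265234 to 31329644), for the beta1 chain found in most tissues, had 290.9 and 267.3 CPM in ff and 184.1 and 167.6 in dd. The spread within each group was small beside the gap between them (log2 −0.67, SE 0.11, edgeR adjusted p = 0.0336). Lama2 (chromosome 10, 26980036 to 27619758) encodes the alpha2 chain, typical of muscle and nerve, and had 119.4 and 140.2 CPM in ff against 60.7 and 76.8 in dd. It fell by 0.92 on the log2 scale (SE 0.15, edgeR adjusted p = 0.0371), but was not called by limma-trend on FPKM (adjusted p = 0.0574). Nid1 (chromosome 13, 13437551 to 13512269), for the linker protein nidogen 1, fell from 683.5 ± 6.38 to 424.9 ± 46.5 CPM, with 679 and 688 in ff and 392 and 458 in dd. Its log2 change was −0.69 (SE 0.12, edgeR adjusted p = 0.0415). Lama2, Lamb1 and Nid1 lost their calls without any 1 library, with log2 changes of −1.09 to −0.75, −0.73 to −0.60 and −0.80 to −0.57 and adjusted p values from 0.0523 to 0.127. Genes of the opposite strand share 3.86% of the exon bases of Lama2, 2.06% of those of Nid1 and 1.83% of those of Lama3 (in the other 8 members with such overlap, up to 8.6% with 1 locus, in Itgad), and the use of strand in counting is not given. Stromal, endothelial and pericyte markers were lower in the same libraries (median log2 changes −0.58, −0.85 and −0.99), and their part in these decreases was not tested. The 9 smooth muscle markers had a median log2 change of 0.25 and the 4 nerve sheath markers one of −0.05, with none called in either list.

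The remaining laminin, nidogen and proteoglycan members did not pass the test. Lamc1, the gamma1 chain gene and the most abundant laminin gene per length, had 581 and 427 CPM in ff and 329 and 288 in dd (log2 −0.71, edgeR adjusted p = 0.0823). Both dd libraries were below both ff libraries, but the ff libraries were far apart. The widest fitted decrease among the members was that of Lamc3, the gamma3 chain gene, at 46.1 and 67.4 CPM in ff and 13.5 and 26.0 in dd. Its log2 change was −1.52 (SE 0.36, adjusted p = 0.0718), or −2.07 without dd replicate 2 and −1.12 without dd replicate 1, and DESeq2 called it (adjusted p = 0.000521). DESeq2 also called Lamc1 (0.00519), Lama4 of the vascular alpha4 chain (0.0373) and, in the higher direction, Lama5 of the epithelial alpha5 chain (0.0355). In edgeR, Lama4 had a log2 change of −0.51 and Lama5 of 0.41 (adjusted p = 0.1003 and 0.0942).

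Lamb2 (log2 −0.20, 95% interval −0.45 to 0.05), the second nidogen gene Nid2 (−0.40, −0.92 to 0.12) and the perlecan gene Hspg2 (−0.39, −0.73 to −0.05) were below 0. Their groups did not overlap. In Nid2 the gap was very small, with 35.3 and 50.4 CPM in ff and 35.2 and 29.9 in dd. Lama1, at 0.66 to 1.74 CPM, was near the lower end of detection (log2 −1.12, edgeR adjusted p = 0.0916). Agrn, for the proteoglycan that clusters receptors at the nerve-muscle junction, rested on 1 library. It had 157, 177 and 173 CPM in ff replicates 1 and 2 and dd replicate 1 and 328 in dd replicate 2. Its log2 change was 0.58 with all libraries (edgeR adjusted p = 0.283), 0.98 without dd replicate 1 (adjusted p = 0.0483) and 0.048 without dd replicate 2 (adjusted p = 0.871). All 10 laminin genes described had groups that did not overlap, 3 with dd above ff and 7 below. Such a gap was seen in 30 of the 40 members, 10 above and 20 below, and in 62.8% of all genes tested (31.6% above and 31.3% below).

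**Figure D2:**
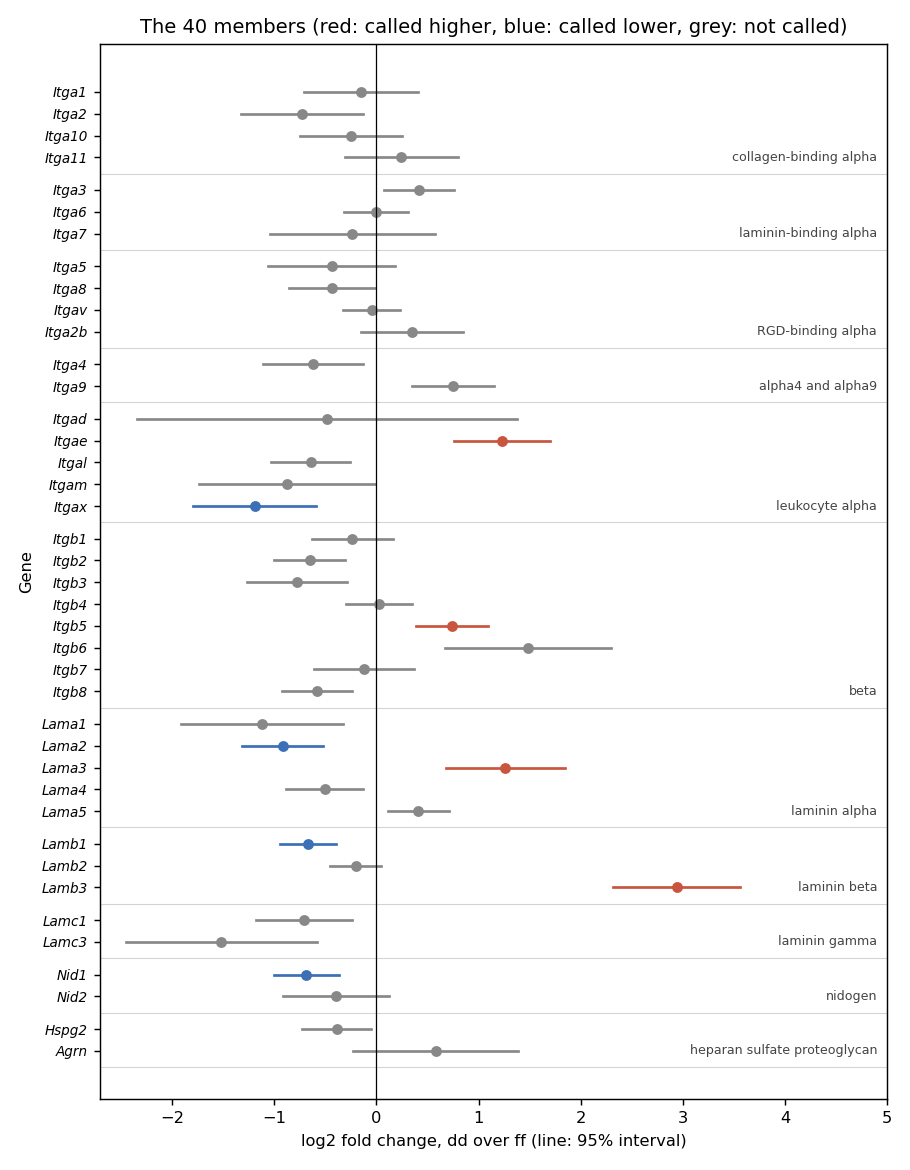
Log2 fold change of dd over ff on the x axis for each of the 40 members, grouped by role, with its 95% interval from the edgeR fit as a line. Lama3 and Lamb3 lie to the right of 0 and Lama2, Lamb1 and Nid1 to the left, while Itga6 (−0.31 to 0.31) and Itgb4 (−0.29 to 0.35) centre on 0.

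Per length, the make-up of the laminin alpha and beta chains differed between the libraries. FPKM values, which divide by gene length and so let chains be set side by side, were summed over the chains of a kind in each library. Lamb3 made up 0.875% and 1.40% of beta chain FPKM in ff and 9.26% and 11.2% in dd. Lamb1 made up 41.8% and 41.7% in ff and 32.7% and 29.5% in dd, and Lamb2 stayed between 56.9% and 59.4% in the 4 libraries. Lamb2, for the beta2 chain, was thus the leading beta chain transcript under both labels. Among alpha chains Lama5 led in every library (37.2% to 48.7%). Lama3 took 10.9% and 11.3% in ff and 20.0% and 27.9% in dd, while Lama2 took 18.0% and 21.7% in ff and 8.88% and 10.02% in dd. The summed alpha chain FPKM was 40.7 and 39.5 in ff and 41.5 and 47.1 in dd, and that of the beta chains 70.2 and 64.5 against 56.4 and 57.5. The shares are given as a description, with no test, and they describe RNA, not assembled laminin.

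**Figure D3:**
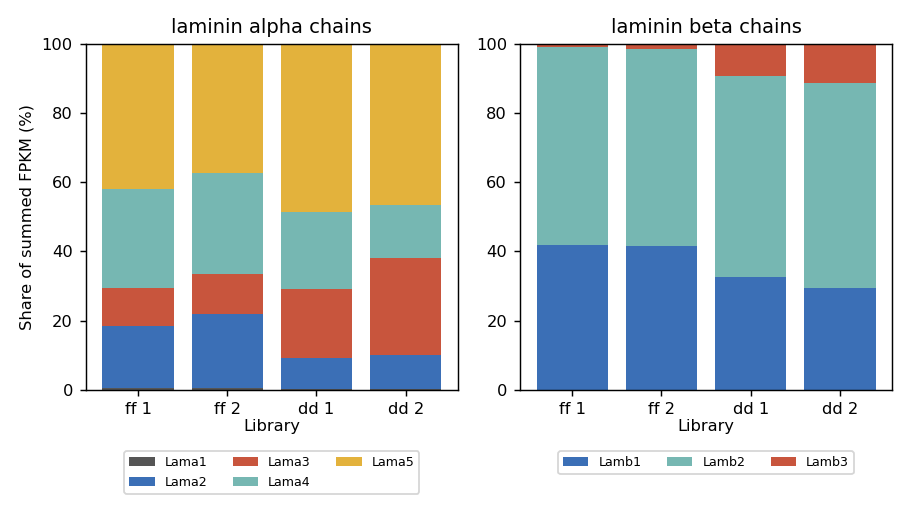
Share of summed FPKM in percent (y axis) taken by each laminin alpha and beta chain gene in each of the 4 libraries (x axis). The red segments, Lama3 and Lamb3, are larger in both dd bars than in both ff bars of each panel, as with Lamb3 at 0.875% and 1.40% against 9.26% and 11.2%.

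The integrin alpha subunits that bind laminin did not pass the test. Itga6 and Itgb4, the subunits of the hemidesmosome receptor, had changes near 0 in the libraries where the chain genes Lama3 and Lamb3 of its ligand rose. Itga6 had 173.8 and 144.2 CPM in ff and 162.3 and 155.6 in dd, with a 95% interval of the log2 change from −0.31 to 0.31 (edgeR adjusted p = 0.998). Itgb4 had 87.7 and 78.2 CPM in ff and 77.1 and 92.2 in dd, with an interval from −0.29 to 0.35 (adjusted p = 0.896). Smaller changes than these bounds cannot be told from none with 2 libraries a group. Itga3, whose product pairs with beta1 as another receptor of this laminin, had 84.2 and 66.7 CPM in ff and 100.9 and 101.1 in dd (log2 0.42, adjusted p = 0.119). Itga7, the laminin receptor subunit of muscle, overlapped between the groups (log2 −0.24), with 19.7 CPM in dd replicate 2 against 33.7 to 37.96 in the other libraries.

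Collagen receptor subunits likewise did not pass. Itga1 (log2 −0.15, edgeR adjusted p = 0.683), Itga10 (−0.25, 0.44) and Itga11 (0.24, 0.496) had intervals that included 0. Itga2, the platelet and epithelial collagen receptor subunit, was the furthest from 0 of the 4, at 12.4 and 15.8 CPM in ff and 9.86 and 7.20 in dd (log2 −0.73, adjusted p = 0.121). Itga1 and Itga2 lie 20995 bases apart on chromosome 13. Another annotated locus on the same strand shares 33.5% of the exon bases of Itga10, so its counts are uncertain.

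Among subunits that recognise the RGD motif of fibronectin and vitronectin, Itga5 was the most abundant alpha subunit per length, with 47.4 ± 10.96 FPKM in ff and 35.0 ± 8.58 in dd (SD, n = 2). Its libraries overlapped (log2 −0.44, edgeR adjusted p = 0.295). Itgav differed little (log2 −0.047, 95% interval −0.33 to 0.23). Itga8, a subunit of mesenchymal and smooth muscle cells, had a log2 change of −0.43 (adjusted p = 0.162). Itga2b, the platelet receptor subunit, had one of 0.35 (adjusted p = 0.29). The 6 platelet markers summed to 6.43 and 4.59 CPM in ff and 5.50 and 4.49 in dd. In the separate group of alpha4 and alpha9, Itga9, for a receptor of tenascin and of lymphatic valves, came close to a call. Its CPM were 38.4 and 48.8 in ff and 79.1 and 67.5 in dd, with a log2 change of 0.75 (SE 0.15, edgeR adjusted p = 0.0537), and DESeq2 called it (adjusted p = 0.00211). Its relative Itga4, a leukocyte subunit, pointed the other way (log2 −0.62, edgeR adjusted p = 0.112).

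Leukocyte integrins split into 1 increase and a set of lower values. Itgae (chromosome 11, 73090583 to 73147446), whose product holds lymphocytes to the E-cadherin of epithelial cells, had 135 and 140 counts under ff against 243 and 297 under dd. It more than doubled, from 4.28 ± 0.311 to 10.04 ± 0.340 CPM, and replicates of each group were close (log2 1.23, SE 0.18, edgeR adjusted p = 0.0302). It lost its call without any 1 library, with log2 changes from 1.16 to 1.30 and adjusted p from 0.0604 to 0.113. Its ligand gene Cdh1 had a log2 change of 0.96, and epithelial markers were higher as given above. Itgb7, for the only known partner subunit of alphaE, showed no such gap, at 8.44 and 8.64 CPM in ff and 8.68 and 7.03 in dd (log2 −0.12, 95% interval −0.61 to 0.37).

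Itgax (chromosome 7, 128129547 to 128150657), the CD11c subunit of dendritic cells and some macrophages, fell from 19.1 and 15.3 CPM in ff to 6.26 and 8.78 in dd. Both dd libraries were below both ff libraries (log2 −1.19, SE 0.23, edgeR adjusted p = 0.0485). It did not pass once any library was left out (log2 −1.46 to −0.97, adjusted p from 0.0652 to 0.168) or with limma-trend on FPKM (adjusted p = 0.0652). Itgb2, the common beta subunit of these receptors, had 19.0 and 17.5 CPM in ff and 12.0 and 11.3 in dd, just short of a call (log2 −0.65, edgeR adjusted p = 0.0537). It was called by DESeq2 (adjusted p = 0.00696), by edgeR without the filter, with the filter of 1 CPM, with upper quartile factors and with library size alone. Itgal, for the CD11a subunit of lymphocytes, had a log2 change of −0.64 (edgeR adjusted p = 0.0676) and Itgam, for CD11b of myeloid cells, one of −0.88 (adjusted p = 0.167). A locus on the same strand shares 68.7% of the exon bases of Itgam, so its counts are uncertain. Itgad was scarce, with 6 to 33 counts per library. Itgam, Itgax and Itgad lie next to each other on chromosome 7, with gaps of 11.1 and 3.7 kb. The 14 leukocyte markers summed to 356 and 396 CPM in ff and to 217 and 221 in dd. Of the 12 tested, 9 were below 0 and 3 above (median −0.81), with 5 called lower and 1 higher. None of the 14 was at 0 counts in every library. The part of these markers in the values above was not tested.

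Of the 8 beta subunits, 1 passed the test. Itgb5 (chromosome 16, 33829665 to 33949338), whose product pairs with alphaV to bind vitronectin, had 59.7 and 63.5 CPM in ff and 90.6 and 114.4 in dd. Every dd library was above every ff library (log2 0.74, SE 0.14, edgeR adjusted p = 0.0435). The call held without dd replicate 1 (log2 0.90, adjusted p = 0.0425) but not without dd replicate 2 (0.56, 0.0969), ff replicate 1 (0.69, 0.16) or ff replicate 2 (0.78, 0.0878). With library size alone (adjusted p = 0.0566) and with limma-trend on FPKM (0.0609) it was not called either. Itgb6, for the epithelial alphaV partner that activates TGF-beta, had a larger fitted change from lower counts, at 106 and 169 in ff and 318 and 323 in dd. Its ff libraries differed from each other, and its log2 change of 1.49 (SE 0.32) did not pass (edgeR adjusted p = 0.0572), although it did without ff replicate 2 (log2 1.91, adjusted p = 0.0401), with DESeq2 (0.000698) and with limma-voom (0.0489).

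Itgb3 and Itgb8, further alphaV partners, had lower values in dd that did not pass. Itgb3, whose product forms with alphaV a receptor often studied in endometrial receptivity, had 57.3 and 58.0 CPM in ff and 40.0 and 27.4 in dd (log2 −0.78, edgeR adjusted p = 0.0762). It passed without dd replicate 1 (log2 −1.06, adjusted p = 0.0367). Itgb8 had 44.2 and 43.1 CPM in ff and 32.3 and 26.1 in dd (log2 −0.58, adjusted p = 0.0652). Groups did not overlap in either gene, and DESeq2 called both lower (adjusted p = 0.00793 and 0.0122). Itgb1, the partner of most alpha subunits, was the most abundant member per length, with 140.4 ± 20.3 FPKM in ff and 119.3 ± 11.6 in dd (log2 −0.23, edgeR adjusted p = 0.364).

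In order of mean FPKM over the 4 libraries, Itgb1 (129.8) was followed by Nid1 (79.7), Lamc1 (49.1), Itga5 (41.2), Lamb2 (35.9), Hspg2 (32.0), Itgb5 (23.1), Lamb1 (22.9) and Agrn (22.5). Several neighbours in this order overlap in their libraries, such as Lamc1 with Itga5 and Itgb5 with Lamb1. Among beta subunits Itgb1 took 74.6% and 70.7% of summed FPKM in ff and 69.9% and 64.8% in dd. Itgb5 was next, at 8.10% and 9.997% in ff and 13.9% and 18.9% in dd. Among alpha subunits Itga5 led with 42.6% and 37.4% in ff and 34.7% and 29.2% in dd, followed in each library by Itga6 or Itga3. The levels per length at the low end were those of Lama1, Itgad and Itga11, each under 1 FPKM in every library.

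**Figure D4:**
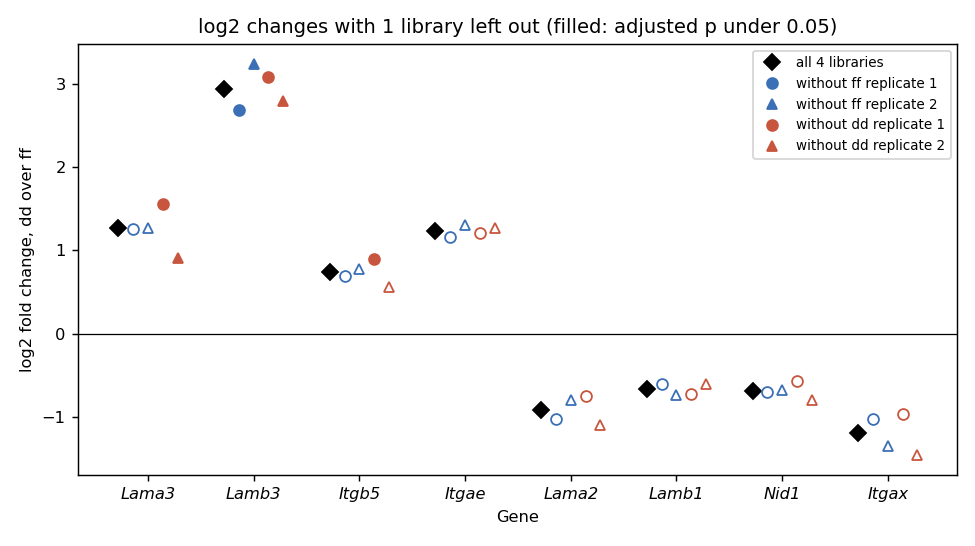
Log2 fold change of dd over ff on the y axis for the 8 called members, with all 4 libraries (diamond) and with each library left out in turn, filled where the edgeR adjusted p was under 0.05. Lamb3 is filled in all fits (2.68 to 3.24), while Itgae, Lama2, Lamb1, Nid1 and Itgax are filled only with all 4 libraries.

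Of 25 other basement membrane genes tested, 1 rose and 8 fell under the label dd, with a median log2 change of −0.67. The increase was Lad1 (ladinin, an anchoring filament protein of epithelial basement membranes), from 9.66 ± 1.68 to 47.2 ± 2.32 CPM (log2 2.29, edgeR adjusted p = 0.0156), which held whichever library was left out. The decreases included Col4a1, a chain of the collagen IV network, from 1426 ± 73.1 to 615 ± 110 CPM (log2 −1.21), Col4a5 (−0.80) and Pxdn (−0.77), the peroxidase that crosslinks collagen IV. The number called lower was 0 without ff replicate 1 and without dd replicate 2, and 3 without ff replicate 2 and without dd replicate 1, while Lad1 alone was higher in each of these fits. Endothelial, pericyte and stromal markers were lower in these libraries too, as given above.

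Among ligands of integrins outside the basement membrane, 20 of 21 tested genes had changes below 0 (median −0.50) and 4 fell. These were Fn1 (fibronectin, the ligand of alpha5 beta1, log2 −1.03), Fbn1 (fibrillin, −1.29), and the endothelial ligands of leukocyte integrins Icam1 (−1.27) and Vcam1 (−0.91). The number lower was 0 without ff replicate 1, 6 without ff replicate 2 (with 1 higher), 3 without dd replicate 1 and 1 without dd replicate 2. Adaptors on the cytoplasmic side of integrins showed no common direction, with a median of −0.05 and 3 higher and 2 lower of 28. Fermt1, the kindlin of epithelial cells, rose by 1.78 and Cib1 by 0.63 on the log2 scale, while the tensin gene Tns2 fell by 0.77 and Dab2 by 0.76. The third increase, Tln2, was named after its value was seen (log2 0.56). Adaptors called higher and lower numbered 1 and 0 without ff replicate 1, 2 and 1 without ff replicate 2, 0 and 1 without dd replicate 1, and 0 and 0 without dd replicate 2. Of 16 other laminin receptors and hemidesmosome partners 1 was called, the tetraspanin gene Cd9 (log2 0.85, adjusted p = 0.0255), whose call was kept only without dd replicate 1. Col17a1, the hemidesmosome collagen, had 60 and 41 counts under ff against 13 and 9 under dd and did not pass (edgeR adjusted p = 0.0618). It was named after its values were seen.

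**Figure D5:**
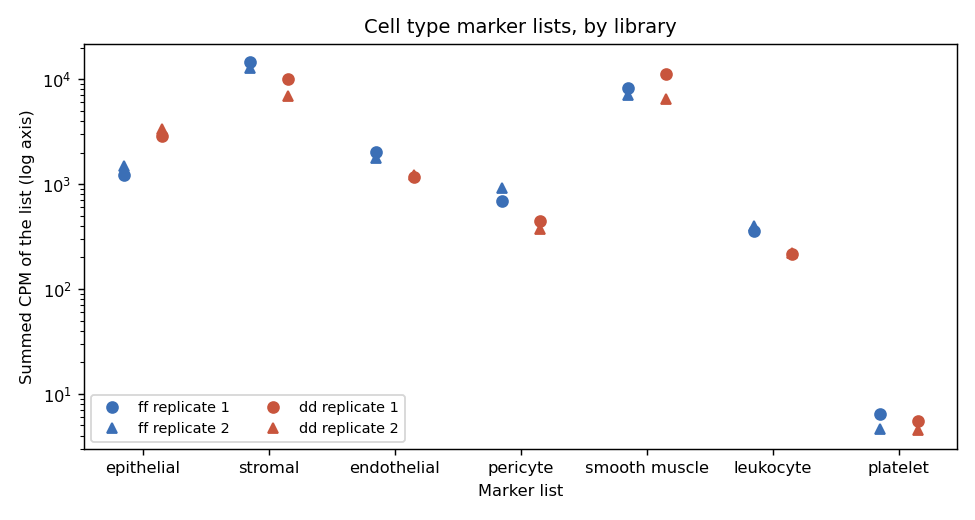
Summed CPM on a log axis for 7 cell type marker lists in each library (blue ff, red dd). Epithelial markers are higher in both dd libraries and stromal, endothelial, pericyte and leukocyte markers lower, while platelet (4.49 to 6.43) and smooth muscle markers (6444 to 11330) overlap between the groups.

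In the authors' deposited table, 4 members had a fold above 1 and 4 a fold below 1 at an unadjusted p under 0.05. They were Itgae, Itgb6, Lama3 and Lamb3 above 1 and Itgax, Lama1, Lama2 and Lamc3 below 1. Of the members called in edgeR, Itgb5 (unadjusted p = 0.112), Lamb1 (0.148) and Nid1 (0.137) did not pass in the authors' deposited table. For Lamb3 the fold in the authors' deposited table is 7.66 (unadjusted p = 4.30e-09), and for Lamc3 the authors' deposited table has 0.349 (unadjusted p = 0.00127).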

How the data were processed

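RNA sequencing of whole uteri gave 4 libraries, 2 labelled ff and 2 labelled dd. Per the submitters' processing notes, STAR, edgeR and the mm10 build were used; the counter, the annotation and whether strand was used: not given in the sources used here. The deposited table holds whole-number counts, a signal column of rescaled counts, FPKM values per the file headers (the series design says RPKM), a fold ratio and a p-value by the authors. FPKM followed the authors' rescaled counts within 1% for 89.2% of 17509 genes. Counts were tested with edgeR 4.0.16 (R 4.3.3; TMM, filterByExpr, quasi-likelihood test, no block) over all genes with Benjamini-Hochberg adjustment. CPM use TMM-scaled library sizes. SD are over 2 libraries.

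The members and gene lists were chosen with earlier results of these data known. Of the 41 genes of the rule, 1 is not reported here and enters no count of members, but stayed in the tests over all genes. Every other member was to be named, called ones in full, and up to 4 called genes of each pathway list. Positions and exon overlap came from GENCODE M21 (40 of 40 members matched; 17 overlap a gene of the opposite strand, 11 of them in exons). Alternatives tried were leaving out each library (the lone library assumed to vary like the other group), a replicate block, other scalings and filters, DESeq2 1.42.0, limma 3.58.1 (voom, and trend on log2(FPKM + 0.5)) and an adjusted p under 0.01. The edgeR test was also run on data simulated with the spread estimated from these libraries, and it did not recover every changed gene. Replicates differed by more than sampling noise (chi-square per gene 32.0 in ff and 32.6 in dd).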

Additional observations from a re-analysis of the deposited data

How the results depend on the processing

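Over all genes, 1554 were called by the test as reported, 2947 without the filter, 3001 with DESeq2 and 10 at an adjusted p under 0.01. With 1 library left out there were 90 to 1198. Members called higher numbered 4, and 7 with DESeq2, 2 with limma-trend on FPKM, and 1 to 4 with 1 library left out. Members called lower numbered 4, and 7 with library size alone, 11 without the filter, 11 with DESeq2, 2 with limma-trend on FPKM, and 0 to 1 with 1 library left out. At an adjusted p under 0.01, edgeR called 0 members higher and 0 lower, while 8 and 17 had an unadjusted p under 0.05. The counts at 0.01 come from the same edgeR fit read at a stricter threshold, and the cause of the other shifts was not tested. No called member changed direction in any alternative. Same-numbered replicates are not said to be paired, and their deviations were hardly correlated (0.0087). With the replicate block, 4 members were higher and 5 lower, with Lamc1 and Lamc3 gained and Itgax lost (adjusted p = 0.0622). For members of few counts, such as Itgad and Lama1, counting error limits the estimates.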
